A study of Mus musculus with 120 samples.

Results

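Described here are 10 glutathione transferase genes of mouse liver, Gsta1, Gsta2, Gsta3, Gsta4, Gstm1, Gstm2, Gstm3, Gstp1, Mgst2 and Mgst3. They were taken by symbol from the 24883 rows of the expression table, and the list was drawn up with earlier results of these data known. All 10 are among the 12205 rows that averaged at least 1 unit and were tested. Counts of members set beside shares of all genes are therefore descriptions.

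Glutathione transferases join the tripeptide glutathione to reactive, often oxidised or foreign molecules, which makes those molecules more soluble and ready for export from the cell. The soluble enzymes fall into classes named by Greek letters, among them alpha (the Gsta genes), mu (the Gstm genes) and pi (the Gstp genes), and a separate membrane-bound family holds Mgst2 and Mgst3. Liver is rich in these enzymes, and in mice the pi-class transferase is known for a higher level in male than in female liver.

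Liver RNA was sequenced from males and females of 10 strains of the Collaborative Cross, a panel of inbred mice bred from a shared set of founders so that each strain holds its own blend of founder alleles. They are CC032, CC040, CC042, CC043, CC060, CC003, CC011, CC013, CC019 and CC041. In every strain and sex, mice on an obesity-promoting diet (HF/HS, 42% of energy from milkfat, 0.2% cholesterol and more than 30% sucrose, given for 12 weeks) were set against mice on an ingredient-matched control diet with little fat and less sucrose. Ages are not given in the sources used here, no transgene is named, and the labels leave unsaid whether the 3 libraries of a group are 3 different mice. The p-values therefore measure the spread between libraries, which may be technical.

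The labels give 120 libraries in 40 groups of 3. In CC040 females, the columns of HF/HS library 1 and control library 3 held the same value in all 24883 rows, and both were left out. The libraries used were 59 on the HF/HS diet (30 male and 29 female) and 59 on the control diet (30 male and 29 female). Values are FPKM-like, that is, scaled to transcript length and to the library, and the authors rescaled them so that the 75th percentile of each library was between 9.98 and 10.0. They are called units below. Depth is unknown. A value of 0 can also be a failed estimate, since Alb, the main plasma protein gene of hepatocytes, was listed at 0 in 104 of 120 libraries. The hepatocyte genes Ttr and Apoa1 were at 2037 units and 3913 units or more in every library. CC003 libraries summed to 3192040 to 4629870 units, against 926928 to 1986960 in the other strains. CC060 libraries had a median of 68.1 units for Malat1, a nuclear RNA, against strain medians of 761 to 1687 elsewhere. Within groups, CC011 female HF/HS 1, CC060 female control 1 and CC060 male control 3 had low median correlations to their group mates, at 0.900, 0.934 and 0.935. CC011 female HF/HS 3 and 2 had 0.932 and 0.933, in a group that held CC011 female HF/HS 1. Values without CC011 female HF/HS 1, CC060 female control 1 or CC060 male control 3 are given beside results named below that change without them.

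Several of these genes have near-identical relatives, and reads from shared stretches could have been divided among them in the authors' counting. Of the 50-base stretches in the GENCODE M21 transcripts of Gsta1, 89.7% also occur in a listed relative, chiefly the predicted gene Gm3776 (82.9%) and Gsta2 (44.6%). The shares were 46.8% for Gsta2, 51.0% for Gstp1 (all with Gstp2), 15.8% for Gstm3, 9.36% for Gstm1 and 0.961% for Gstm2. No such stretch of Gsta3, Gsta4, Mgst2 or Mgst3 was shared with the listed relatives. The values of Gsta1, Gsta2 and Gstp1 are therefore uncertain as to which paralog they count, and the same holds in smaller part for Gstm3 and Gstm1. Among longest open reading frames, Gsta1 and Gsta2 were identical at 97.5% of aligned positions, Gsta1 and Gm3776 at 99.7%, and Gstp1 and Gstp2 at 98.1%, against 74.0% for Gsta1 and Gsta3.

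In the mm10 build used by the table, counted from 1, Gsta1 spans chr9:78230669-78242683, Gsta2 chr9:78331020-78347145 and Gsta4 chr9:78191966-78209349, while the remaining alpha member Gsta3 lies at chr1:21240585-21265575. The mu members lie close together, with Gstm1 at chr3:108012250-108017973, Gstm2 at chr3:107981702-107986436 and Gstm3 at chr3:107963696-107969174. Gstp1 spans chr19:4035411-4037912, Mgst2 chr3:51661193-51682675 and Mgst3 chr1:167372384-167393797. RefSeq promoter sequences (GRCm38.p6, the patched release of the mm10 assembly) were at hand for 9 of the 10 members, all but Gsta4.

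The 250 bases before the start of Gsta1 (chr9:78230419-78230668 on the plus strand) and of Gsta2 (chr9:78347146-78347395 on the minus strand) are shown because the values of these nearby genes varied together across the groups. Gsta1 shares 44.6% of its 50-base stretches with Gsta2, so these rows may count some of the same reads. Capitals mark the longest run the 2 promoters share, 29 bases, and the windows were identical at 70.5% of aligned positions.
Gsta1: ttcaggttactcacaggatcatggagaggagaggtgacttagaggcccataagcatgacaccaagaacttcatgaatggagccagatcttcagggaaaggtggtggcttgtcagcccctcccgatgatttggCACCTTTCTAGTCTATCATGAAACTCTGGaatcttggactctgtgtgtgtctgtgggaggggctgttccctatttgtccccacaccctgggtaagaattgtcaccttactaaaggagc
Gsta2: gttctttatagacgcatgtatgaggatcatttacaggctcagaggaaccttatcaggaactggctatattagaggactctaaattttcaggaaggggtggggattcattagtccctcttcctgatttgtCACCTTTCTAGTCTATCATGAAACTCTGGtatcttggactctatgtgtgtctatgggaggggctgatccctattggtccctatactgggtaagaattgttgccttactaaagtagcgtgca

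The same window is shown for Gstp1 (chr19:4037913-4038162 on the minus strand) and its relative Gstp2 (chr19:4042222-4042471 on the minus strand), the gene whose pattern was most like that of Gstp1. Capitals mark the letters TGAGTCA, known as the binding element of AP-1 transcription factors, and the windows were identical at 78.1% of aligned positions.
Gstp1: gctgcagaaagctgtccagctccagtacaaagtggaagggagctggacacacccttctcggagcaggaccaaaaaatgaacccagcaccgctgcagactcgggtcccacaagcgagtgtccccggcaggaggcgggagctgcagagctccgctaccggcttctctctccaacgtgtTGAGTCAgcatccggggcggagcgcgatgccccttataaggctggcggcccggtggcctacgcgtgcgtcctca
Gstp2: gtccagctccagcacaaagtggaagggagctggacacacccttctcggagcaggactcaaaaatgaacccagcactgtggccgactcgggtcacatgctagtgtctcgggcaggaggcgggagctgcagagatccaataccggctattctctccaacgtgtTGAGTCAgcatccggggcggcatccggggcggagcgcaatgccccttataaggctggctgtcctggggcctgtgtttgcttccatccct
Read on either strand, TGAGTCA occurred in 4.46% of 32851 mouse promoter windows of this length. It lay 74 to 68 bases before the start of Gstp1, 89 to 83 bases before that of Gstp2 and, on the opposite strand, 52 to 46 bases before that of Mgst2. The core letters of the antioxidant response element, TGACNNNGC, were in 10.2% of windows and among the members only in that of Gsta3, 121 to 113 bases before the start. The letters TTCNNNGAA, the core bound by STAT factors, were in 7.02% of windows and among the members only in that of Gsta1, 162 to 154 bases before the start. Only the letters given were searched, and other forms of these elements were not. These matches describe letters and not bound sites.

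Levels of the family ranged widely. Gsta3, known in mice for clearing the epoxide of aflatoxin, had lowest, median and highest values of 367, 1251 and 2385 units on the HF/HS diet, against 188, 1473 and 2612 on the control diet. Gstm1, an abundant mu-class enzyme, had 108, 1124 and 2454 units on the HF/HS diet and 268, 1007 and 2193 on the control diet. Gstp1 was in the same range, at 155, 484 and 6016 units on the HF/HS diet and 149, 372 and 9493 on the control diet. By their means over all libraries used, Gsta3, Gstp1 and Gstm1 ranked 125th, 133rd and 155th among all rows, and Mgst2 ranked 7847th. The lowest medians over all libraries were those of Gsta1 (6.82 units) and Mgst2 (0.137 units), and Mgst2 was listed at 0 in 51 libraries. The other 5 members had medians of 20.8 units (Gsta2) to 104 units (Gstm2). Since units are per length, these levels can be compared between genes, apart from the reads that paralogs share.

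Strains differed in level for every member. On the control diet, the difference between the 10 strains passed the test for 10 of 10 members (limma F test on 9 contrasts), but so did 96.6% of all genes tested, so that count says little about the family. Mgst2 passed the filter on low values only through CC032 and CC040 and so had to differ. Among the other 9 members the adjusted p ran from 1.73e-35 for Gstm2 to 4.59e-08 for Gsta4. Of the 45 pairs of strains for each of 10 members, 242 of 450 differed (22 of them of Mgst2), or 112 higher and 130 lower in the lower-numbered strain, against 44.5% of all gene-pair combinations (20.2% higher, 24.3% lower). The members differed in which strains stood apart. CC003 libraries stood apart in their sums and CC060 libraries in Malat1, and the kit each library was made with is not given. For CC003 and CC060, strain and preparation therefore cannot be told apart in these levels.

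Gsta1 and Gsta2, alpha-class enzymes that are inducible in mouse liver, were high in CC043 and CC060. Over both diets, Gsta1 had lowest, median and highest values of 3.17, 86.8 and 144 units in these 24 libraries, against 0.138, 5.65 and 55.9 units in the other 94. Gsta2 had 9.93, 317 and 509 units in CC043 and CC060, against 0.661, 17.3 and 112 units elsewhere. The lowest value of both strains came from CC060 females on the control diet, where Gsta1 was at 3.17, 51.9 and 13.7 units. With strains ordered by their mean log2(value + 1) on the control diet, CC043 ranked first for Gsta1 with 77.0 ± 15.6 units (SD, n = 6) and differed from CC060, second with 45.4 ± 38.9 units (adjusted p = 0.0031, and 0.0511 without CC060 female control 1). CC060 in turn differed from CC011, next with 8.16 ± 6.32 units (adjusted p = 1.25e-05). Below that the order was CC011, CC032, CC013, CC019, CC003, CC041, CC042 and CC040, and no neighbours there differed past the threshold (adjusted p of 0.508 or more). Gsta2 had the same first 3 strains, with 295 ± 50.7 units in CC043, 153 ± 133 in CC060 and 40.2 ± 35.8 in CC011, and again only the first 2 steps passed. The step between CC060 and CC011 was lost for Gsta2 without female control 2 of every strain (adjusted p = 0.0904). The ratio of Gsta2 to Gsta1 was a median of 3.43 over all libraries used, with strain medians between 2.56 in CC032 and 4.74 in CC011.

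**Figure D1:**
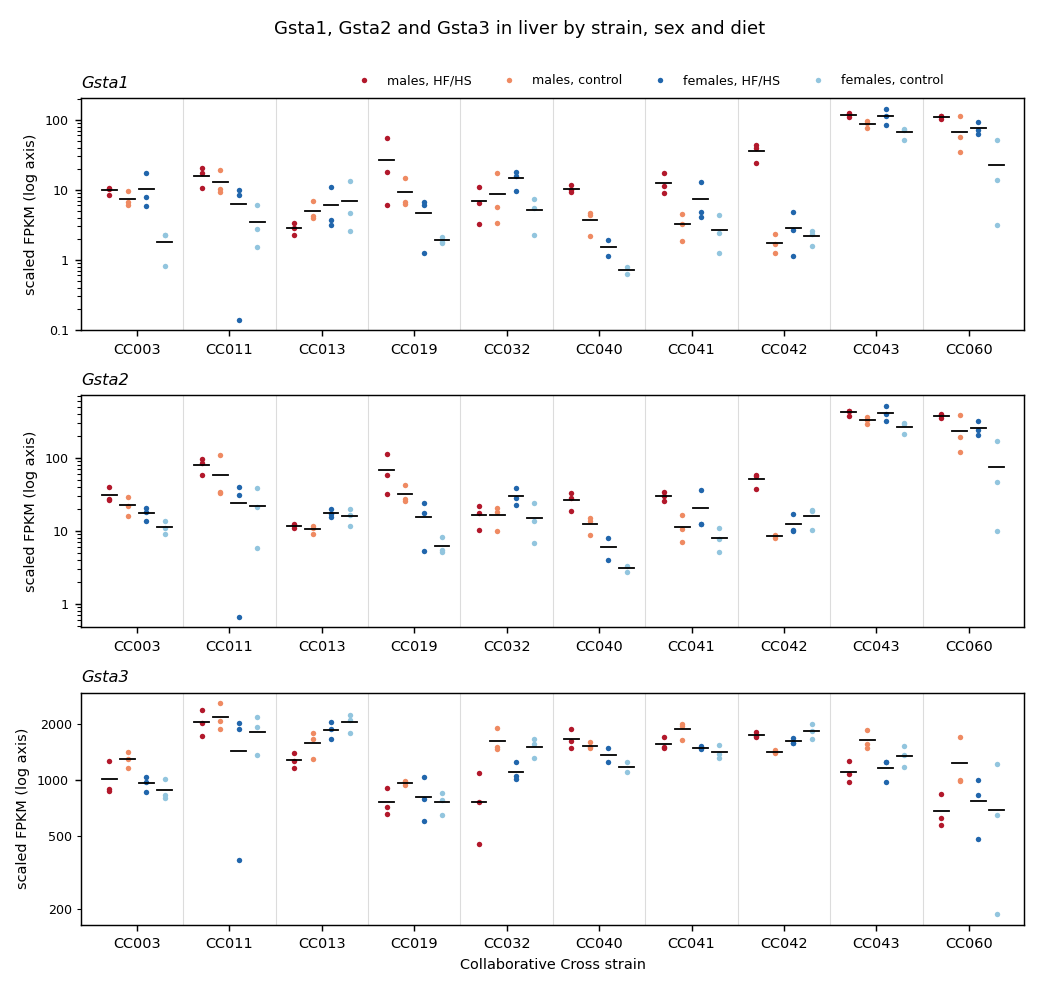
Gsta1, Gsta2 and Gsta3 in scaled FPKM (log axis) in each library (points) by strain, sex and diet, with black bars at group means (3 libraries a group, 2 for CC040 females). Averaged by strain, Gsta1 and Gsta2 were highest in CC043 and CC060. For Gsta1, CC060 females on the control diet (mean 22.9 units) lay below CC042 males on the HF/HS diet (35.7 units). In CC042 males the HF/HS libraries of Gsta1 and Gsta2 lay above the control libraries.

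Mgst2, a membrane-bound transferase that can also make the lipid mediator leukotriene C4, was detected at more than 1 unit in CC032 and CC040 alone. It had lowest, median and highest values of 3.65, 34.4 and 74.1 units in the 22 libraries of these strains, against 0, 0 and 0.923 units in the other 96, so the ranges did not overlap. All 12 CC003 libraries listed it at 0. On the control diet CC032 averaged 29.4 ± 23.8 units (SD, n = 6) and CC040 17.4 ± 12.2 units (n = 5), and these differed from each other (adjusted p = 4.5e-08, and 0.0873 with a pseudocount of 0.1). CC013, the next strain, averaged 0.347 ± 0.205 units (n = 6).

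Gstm2 and Gstm3, mu-class enzymes, were low in CC042. Gstm2 had lowest, median and highest values of 3.53, 7.82 and 13.6 units in 12 CC042 libraries, against 42.4, 108 and 468 units in the other 106, without overlap. Its step between CC011 and CC042 on the control diet had an adjusted p of 3.85e-23, and that between CC019 and CC041 one of 0.0365, a call lost in 6 of 34 alternatives. Gstm3 had 2.87, 5.13 and 7.56 units in CC042, and CC040 was low too, at 8.36 ± 3.28 units on the control diet (SD, n = 5) against 38.5 ± 13.6 units in CC011, the next higher strain (n = 6, adjusted p = 1.56e-06). CC040 and CC042 did not pass the test against each other for Gstm3 (adjusted p = 0.286). Gstm1 was lowest in CC032 (524 ± 78.8 units, n = 6) and CC042 (524 ± 256 units, n = 6) on the control diet and highest in CC013 (1482 ± 382 units, n = 6), with no step between neighbours in its order past the threshold.

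**Figure D2:**
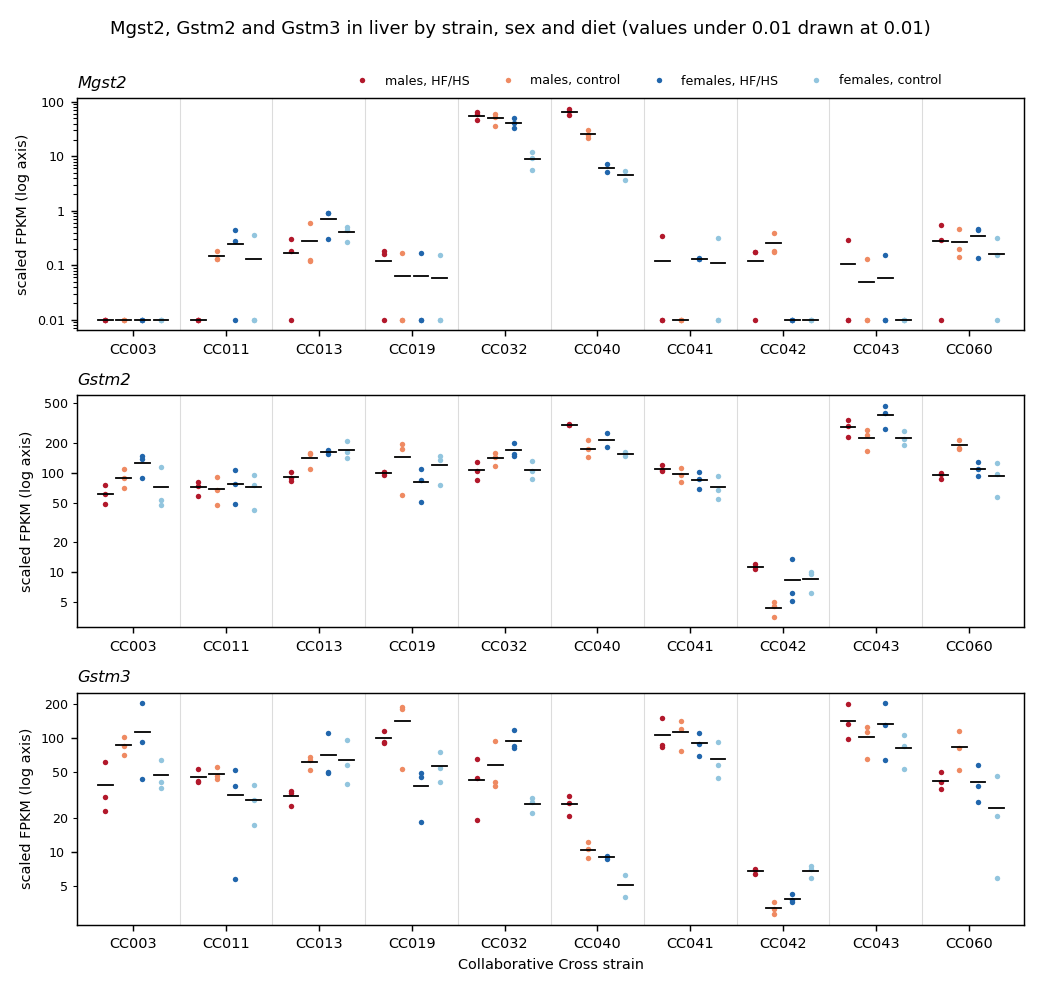
Mgst2, Gstm2 and Gstm3 in scaled FPKM (log axis, values under 0.01 drawn at 0.01) in each library (points) by strain, sex and diet, with black bars at group means. Mgst2 was above 1 unit only in CC032 and CC040, and all CC042 libraries lay below all others for Gstm2.

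Mgst3, a membrane-bound enzyme with peroxidase activity toward lipids, showed the reverse place for CC042. Its order on the control diet ran from CC042 (126 ± 49.4 units, SD, n = 6) and CC040 (79.3 ± 8.06, n = 5) down to CC019 (23.4 ± 16.4, n = 6) and CC060 (20.9 ± 20.2, n = 6), with no neighbouring step past the threshold although 28 of its 45 strain pairs passed. Gsta4, which clears the lipid peroxidation product 4-hydroxynonenal, had the fewest strain pairs called among the members, 18 of 45, and ran in that order from CC043 (126 ± 12.7 units) to CC042 (54.3 ± 33.1 units). Gsta3 was first in CC011 (2013 ± 410.3 units) and lowest in CC019 (863 ± 132 units) and CC060 (961 ± 517 units), with 19 of 45 pairs called and no neighbouring step past the threshold. For Gsta3 and Mgst3 the CC060 mean includes female control 1. Without that library the female control mean of CC060 was 934 units for Gsta3 (685 with it) and 43.8 for Mgst3 (31.2 with it). The Gsta3 call between CC040 and CC060 and the Mgst3 call between CC003 and CC060 were lost without it. Gstp1 was lowest in CC032, at 296 ± 198 units on the control diet, and that strain differed from CC040, the next (597 ± 414 units, n = 5, adjusted p = 0.0096), a call lost in 2 of 34 alternatives. Higher in the order only the step between CC042 and CC003 passed (adjusted p = 0.0488), and it was lost in 13 of 33 alternatives.

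Gstp1, the pi-class enzyme, was higher in males. Males had lowest, median and highest values of 197, 1326 and 6016 units on the HF/HS diet and 305, 2090.4 and 9493 on the control diet, against 155, 232 and 619 in females on the HF/HS diet and 149, 226 and 582 in females on the control diet. The male and female ranges overlap, and the lowest male values on both diets were those of CC032. Male minus female was 2.98 (SE 0.10, adjusted p = 3.24e-44) on log2(value + 1) in mice fed the control diet, and 2.46 (SE 0.10, adjusted p = 3.6e-38) in mice fed HF/HS. It was called in 10 of 10 strains over both diets, from 0.77 in CC032 to 4.34 in CC060, and the strains differed in its size (F test, adjusted p = 2.7e-16).

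The strains at both ends show how far the sexes parted for Gstp1. CC032 males had 235, 215 and 197 units on the HF/HS diet and 305, 347 and 661 on the control diet, against 213, 201 and 175 in CC032 females on the HF/HS diet and 157, 156 and 149 in CC032 females on the control diet, so the HF/HS ranges of the sexes overlap and the control ranges do not. In CC060, males had 3374, 2741 and 3212 units on the HF/HS diet and 2848, 3531 and 9493 on the control diet, against 189.6, 216 and 162 in females on the HF/HS diet and 162, 184 and 206 in females on the control diet, with no overlap on either diet. The ratio of male to female means on the control diet was 28.8 in CC060, where the highest value came from male control 3 (17.4 without that library), and 2.84 in CC032. CC019 had the highest male levels on the HF/HS diet, at 6016, 5471 and 5658 units, against 400.1, 619 and 301 in CC019 females.

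Across all strains on the control diet, 7 of 10 members differed between the sexes, 6 higher and 1 lower in males, against 43.5% of all genes (24.8% higher, 18.8% lower). The 6 higher in males were Gstp1, Gsta1, with a male minus female difference of 0.94 (SE 0.19, adjusted p = 2.4e-05), Gsta2 (0.81), Gstm3 (0.70), Mgst2 (0.49) and Gsta3 (0.28, SE 0.10, adjusted p = 0.0197). Mgst3 was the 1 lower in males, at -0.81 (SE 0.13, adjusted p = 1.48e-07). On the HF/HS diet 5 of 10 were called, 4 higher and 1 lower in males, against 45.4% of all genes (25.1% higher, 20.3% lower). These were Gstp1, Gsta1 (0.89), Gsta2 (0.94), Mgst2 (0.30) and Mgst3 (-0.99). The members' median difference was 0.39 on the control diet, where that of all genes was 0.02, and 0.11 on the HF/HS diet, where that of all genes was 0.02. With the strain in place of the library as the unit, 4 members remained past the threshold on the control diet (Gstp1, Gsta1, Gstm3 and Mgst3) and 2 on the HF/HS diet (Gstp1 and Mgst3). Without CC040 the difference of Mgst2 on the HF/HS diet was -0.03 (adjusted p = 0.741), so it rests on that strain. On both diets Mgst2 was near 0 outside CC032 and CC040, the strains through which it passed the filter on low values. Its place in the counts of both diets therefore says little about the family. The call of Gsta3 on the control diet was lost in 9 of 37 alternatives, among them without CC060 female control 1, at 0.20 (adjusted p = 0.0506).

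Mgst3 was lower in males in 9 of 10 strains and called in 6 of them (CC013, CC019, CC032, CC041, CC043 and CC060). CC013 males had 17.7, 13.1 and 16.5 units on the HF/HS diet and 19.9, 13.9 and 28.4 on the control diet, against 55.8, 55.0 and 42.7 in CC013 females on the HF/HS diet and 67.7, 76.9 and 74.3 in CC013 females on the control diet, with no overlap between the sexes. The difference there was the largest of the 10, at -1.73 (SE 0.28, adjusted p = 9.55e-07). In CC011 the difference was 0.16 (SE 0.28, adjusted p = 0.765), and there female HF/HS 1 was at 9.39 units. Without that library it was -0.34 (adjusted p = 0.446), so the direction in CC011 turns with 1 library.

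**Figure D3:**
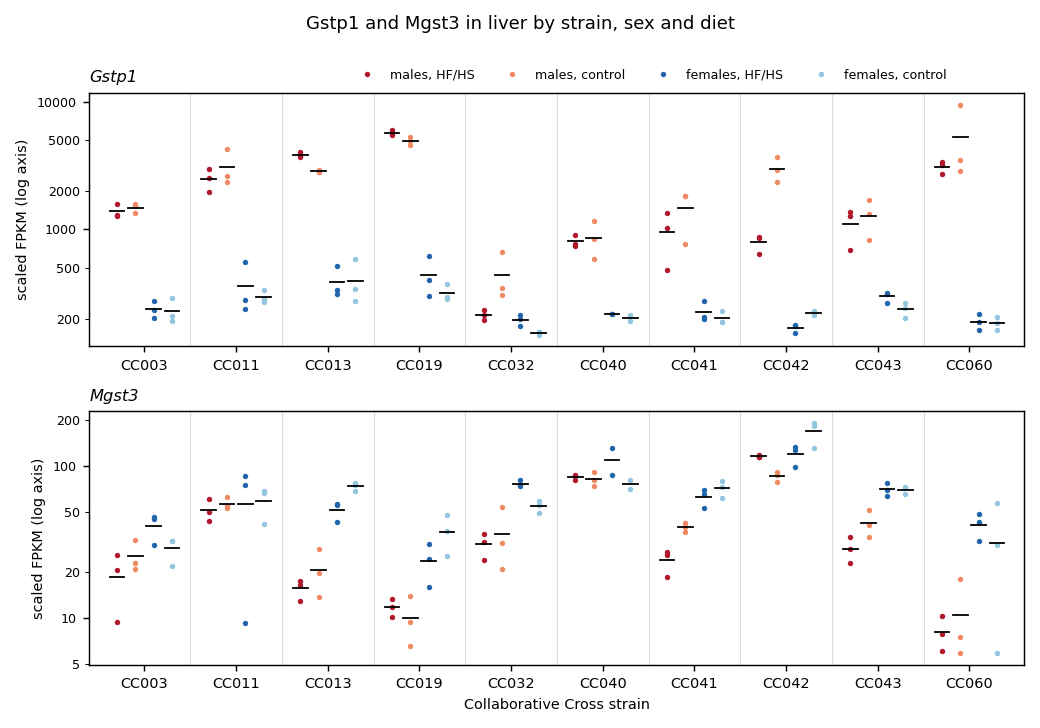
Gstp1 and Mgst3 in scaled FPKM (log axis) in each library (points) by strain, sex and diet, with black bars at group means. Male means lay above female means for Gstp1, least so in CC032, and below them for Mgst3 in CC013, CC019 and CC060 among others.

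Sex also went with Gsta1 and Gsta2 in part of the strains. Male minus female over both diets was called for Gsta1 in 5 strains (CC011, CC019, CC040, CC042 and CC060) and for Gsta2 in 4 (CC011, CC019, CC040 and CC060), all higher in males, and the strains differed in its size for both genes (F test, adjusted p = 0.00156 and 0.000343). In CC042 the ratio of male to female means of Gsta1 was 12.4 on the HF/HS diet and 0.816 on the control diet, so males were above females on HF/HS alone. CC019 males had 55.9, 18.0 and 6.11 units of Gsta1 on the HF/HS diet and 6.77, 14.7 and 6.30 on the control diet, against 1.26, 6.03 and 6.72 in females on the HF/HS diet and 2.12, 1.80 and 1.74 in females on the control diet. The male difference in CC019 was 1.86 (SE 0.41, adjusted p = 0.000503) for Gsta1 and 2.12 (SE 0.42, adjusted p = 8.57e-05) for Gsta2. Without CC060 female control 1, the CC060 differences were 0.84 (adjusted p = 0.136) for Gsta1 and 0.91 (adjusted p = 0.106) for Gsta2, and without CC060 male control 3 that of Gsta1 was 1.08 (adjusted p = 0.065). Without CC011 female HF/HS 1, the CC011 differences were 1.20 (adjusted p = 0.0334) for Gsta1 and 1.31 (adjusted p = 0.0093) for Gsta2, and that of Gstm1 lost its call, at 0.27 (adjusted p = 0.42) against 0.82 (SE 0.25, adjusted p = 0.00968).

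Mgst2 differed between the sexes in both strains that had it above 1 unit. CC040 males had 66.6, 56.3 and 74.1 units on the HF/HS diet and 25.1, 31.1 and 21.7 on the control diet, against 5.13 and 7.26 in CC040 females on the HF/HS diet and 3.65 and 5.47 in CC040 females on the control diet. No male value of CC040 overlapped a female one, and the difference was 2.75 (SE 0.13, adjusted p = 9.24e-31). In CC032 the difference was 1.41 (SE 0.12, adjusted p = 6.84e-17). In CC013 all values were at 0.923 units or below, under the filter on low values, and its difference (-0.35, SE 0.12, adjusted p = 0.0247) was lost in 8 of 35 alternatives. Over all 100 member-strain pairs, 35 were called, 26 higher (2 of them of Mgst2) and 9 lower (1 of Mgst2) in males. This stands against 16.5% of all gene-strain pairs (8.79% higher, 7.71% lower). Of these 35 calls, 24 held in all alternatives that gave a value and 11 were lost in some. The size of the sex difference varied between strains for 8 of 10 members (F test, all but Gsta3 and Gstm2), against 26.6% of all genes. Mgst2 is among the 8 but passed the filter only through CC032 and CC040, so its result says little about the family. Gsta3 passed without CC060 female control 1 (adjusted p = 0.0492).

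**Figure D4:**
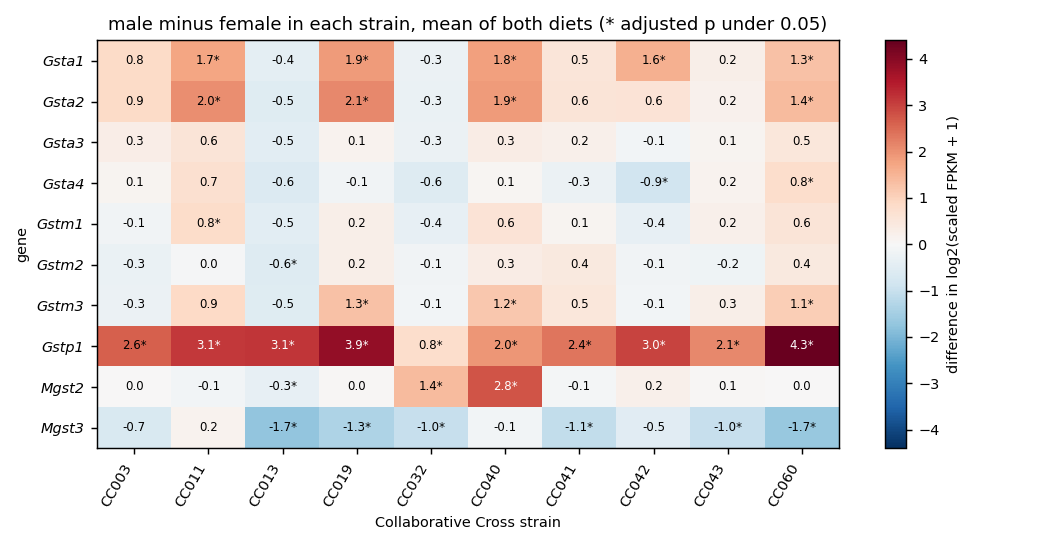
Male minus female in log2(scaled FPKM + 1), averaged over both diets, for each member (rows) and strain (columns), with asterisks at an adjusted p under 0.05. Gstp1 was positive and called in all 10 strains, and Mgst3 was negative in 9 strains, all but CC011, where leaving out female HF/HS 1 turned the sign.

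The diet comparison asks which members changed in liver after 12 weeks on the HF/HS diet. Averaged over all strains and sexes, Gsta1 and Gsta2 rose, with smaller rises of Gstm1 and Mgst2 and a fall of Gsta3. These 5 of 10 members (4 higher, 1 lower) stand against 32.6% of all genes called (17.2% higher, 15.4% lower), and the members' median difference was 0.13, against 0.0006 over all genes. Mgst2 is among the 5 but passed the filter on low values only through CC032 and CC040. Its average is set by those strains, so its place in this count says little about the family.

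Gsta1 averaged 30.1 ± 40.4 units on the HF/HS diet and 16.3 ± 27.2 on the control diet (SD, n = 59 each, with the spread between strains included). HF/HS minus control was 0.91 (SE 0.13, adjusted p = 4.09e-08), and it was positive in 17 of 20 strain-sex groups. Gsta2 averaged 96.8 ± 142 units on the HF/HS diet and 59.2 ± 100.4 on the control diet, a difference of 0.76 (SE 0.13, adjusted p = 4.03e-06) that was positive in 18 of 20 groups, and CC011 females, at -0.48, turned positive without female HF/HS 1. Both were called in males and in females, with 0.89 in males and 0.93 in females for Gsta1, and 0.83 in males and 0.70 in females for Gsta2. The predicted relatives Gm3776 (0.92, SE 0.13, adjusted p = 1.86e-08) and Gm10639 (0.65, SE 0.10, adjusted p = 3.38e-07), which share 50-base stretches with both genes, were called higher as well. The calls of Gsta1 and Gsta2 over all strains and sexes held in all 37 alternatives tried, the strain as the unit among them. When each strain was 1 unit, Gsta1 in males (adjusted p = 0.191) and Gsta2 in females (adjusted p = 0.122) were lost. Gsta2 in females was lost as well without CC060 (0.50, adjusted p = 0.0507), without both CC003 and CC060 (0.48, adjusted p = 0.0942) and without female HF/HS 3 of every strain (0.57, adjusted p = 0.0682).

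Gstm1 rose by less, averaging 1177 ± 466 units on the HF/HS diet and 991 ± 409 on the control diet, a difference of 0.26 (SE 0.08, adjusted p = 0.00721). Without CC040 its difference was 0.19 (adjusted p = 0.0783), and its call was also lost when each strain was 1 unit (adjusted p = 0.0774). Mgst2 had a difference of 0.23 (SE 0.04, adjusted p = 1.82e-06), and within single strains it was called in CC032 and CC040 and in none of the other 8. The call over all strains was lost with a pseudocount of 0.1 (0.30, adjusted p = 0.0725) and when each strain was 1 unit (adjusted p = 0.209). Gsta3 fell, averaging 1262 ± 467 units on the HF/HS diet and 1452 ± 458 on the control diet, a difference of -0.21 (SE 0.07, adjusted p = 0.0158). That call was lost without CC032 (-0.15, adjusted p = 0.148), without CC043 (-0.19, adjusted p = 0.0609), without male HF/HS 3 of every strain (-0.17, adjusted p = 0.0829), without male control 3 (-0.18, adjusted p = 0.0654), under quantile normalization (-0.13, adjusted p = 0.132) and when each strain was 1 unit (adjusted p = 0.0838). The uncalled members were Gsta4 (0.03), Gstm2 (0.12), Gstm3 (0.14), Gstp1 (-0.14, SE 0.07, adjusted p = 0.102) and Mgst3 (-0.09).

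In females 5 of 10 members were called, all higher on the HF/HS diet, against 17.7% of all genes (9.59% higher, 8.08% lower). Besides Gsta1 and Gsta2 they were Mgst2 (0.32, SE 0.05, adjusted p = 7.71e-06), Gstm2 (0.27, SE 0.10, adjusted p = 0.0485) and Gstm3 (0.43, SE 0.16, adjusted p = 0.0478). Mgst2 in females was 0.12 (adjusted p = 0.1) without CC032 and had an adjusted p of 0.3 when each strain was 1 unit. Since Mgst2 was near 0 outside CC032 and CC040, its place in this count says little about the family. Gstm2 and Gstm3 sat at the threshold: Gstm2 lost its call in 21 of 37 alternatives and Gstm3 in 24, among them without CC060 female control 1, at 0.24 (adjusted p = 0.083) for Gstm2 and 0.35 (adjusted p = 0.0923) for Gstm3. In males 4 were called, 2 higher and 2 lower, against 20.9% of all genes (11% higher, 9.93% lower). The 2 lower were Gsta3 (-0.35, SE 0.10, adjusted p = 0.00565) and Gstp1 (-0.40, SE 0.09, adjusted p = 0.000771). The fall of Gsta3 in males was lost without CC032 (-0.26, adjusted p = 0.071), under quantile normalization (-0.23, adjusted p = 0.0611), without male HF/HS 3 (-0.28, adjusted p = 0.0902), without male control 3 (-0.29, adjusted p = 0.0666) and when each strain was 1 unit (adjusted p = 0.116). That of Gstp1 was lost when each strain was 1 unit (adjusted p = 0.247) and without CC042.

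The diet difference itself differed between the sexes for 1 of 10 members, Gstp1, which was lower, against 0.877% of all genes (0.369% higher, 0.508% lower). Gstp1 averaged 2044 ± 1689 units in males on the HF/HS diet and 2472 ± 1916 in males on the control diet (n = 30 each), against 274 ± 117 in females on the HF/HS diet and 246 ± 87.0 in females on the control diet (n = 29 each). The male minus female difference in the diet effect was -0.52 (SE 0.14, adjusted p = 0.0334). It was lost in 16 of 37 alternatives, with adjusted p up to 0.76, and among single strains left out it was lost without CC032 (-0.44, adjusted p = 0.152), CC041 (-0.49, adjusted p = 0.0591), CC042 (-0.42, adjusted p = 0.173), CC043 (-0.52, adjusted p = 0.0702) or CC060 (-0.52, adjusted p = 0.0524). Gstp2, its relative, had -0.57 (SE 0.14, adjusted p = 0.0257). Since Gstp1 and Gstp2 may share reads, that value is not a separate observation.

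Strains differed in the diet effect for 3 of 10 members, against 5.54% of all genes: Mgst2 (F test, adjusted p = 1.82e-08), Gstp1 (adjusted p = 0.0217) and Gstm2 (adjusted p = 0.0433). Mgst2 passed the filter on low values only through CC032 and CC040. Near 0 elsewhere, it had little room for a diet effect there, so its result says little about the family. None of the 3 held in all 36 alternatives: Gstm2 lost this call in 16, Gstp1 in 8 and Mgst2 in 1 (a pseudocount of 0.1, adjusted p = 0.462), and without CC060 male control 3 Gstm2 had an adjusted p of 0.0519. Within single strains over both sexes, 8 of 100 member-strain pairs were called, 6 higher and 2 lower, against 4.56% of all gene-strain pairs (2.36% higher, 2.2% lower). Among the 200 combinations of member, strain and sex, 14 were called, 10 higher and 4 lower, against 3.01% of all combinations (1.52% higher, 1.49% lower). By strain, the calls were Gsta1 and Gsta2 in CC060, Gsta1 in CC041 (1.40, SE 0.41, adjusted p = 0.0326), Gsta1 and Gstp1 in CC042, Gsta3 and Mgst2 in CC032, and Mgst2 in CC040. Only the 2 in CC042 held in all alternatives that gave a value. Gsta1 in CC041 was lost in 8 of 35, with an adjusted p of up to 0.14, Gsta3 in CC032 in 3 of 35, Gsta1 and Gsta2 in CC060 in 1 of 34 each, and Mgst2 with a pseudocount of 0.1 both in CC032 (adjusted p = 0.0703) and in CC040 (adjusted p = 0.735). Of the 14 calls by strain and sex, 3 held in all alternatives that gave a value (Gsta1 and Gstp1 in CC042 males and Mgst2 in CC032 females) and 11 were lost in some. CC042 males held 5 of the 14.

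CC042 males were the group with the most members called, 4 higher and 1 lower, against 4.34% of all genes (2.47% higher, 1.87% lower). Gsta1 was at 24.4, 43.1 and 39.7 units on the HF/HS diet, against 1.70, 2.36 and 1.24 on the control diet, a difference of 3.71 (SE 0.58, adjusted p = 4.33e-06). Gsta2 was at 37.5, 58.7 and 56.8 units against 8.76, 7.99 and 8.51, a difference of 2.44 (SE 0.59, adjusted p = 0.00602). The diets did not overlap for either gene. Gstp1 fell in the same livers, to 645, 867 and 862 units on the HF/HS diet, against 2343, 2915 and 3699.9 on the control diet, a difference of -1.90 (SE 0.30, adjusted p = 4.33e-06). All 3 HF/HS values lay below all 3 control values. Gstm1 was at 639, 727 and 712 units on the HF/HS diet against 336, 304 and 297 on the control diet (1.15, SE 0.35, adjusted p = 0.0404), and Gstm2 at 11.2, 12.0 and 10.8 against 4.99, 4.57 and 3.53 (1.21, SE 0.30, adjusted p = 0.00879), again with no overlap. The Gstm1 call was lost in 13 of 35 alternatives, that of Gstm2 in 3 and that of Gsta2 in 1.

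In CC042 females 0 of 10 members were called by limma, and 0 had an unadjusted p under 0.05, against 1.29% of all genes (0.516% higher, 0.778% lower). Their Gsta1 values were 2.69, 1.14 and 4.81 units on the HF/HS diet and 2.60, 2.32 and 1.56 on the control diet, which overlap. The diet effect on Gsta1 differed between CC042 males and females by 3.52 (SE 0.82, adjusted p = 0.016), a call that was lost without female HF/HS 2 of every strain (3.15, adjusted p = 0.116), male HF/HS 2 (3.37, adjusted p = 0.105), male control 1 (3.51, adjusted p = 0.058) or male control 3 (3.38, adjusted p = 0.0516). Without CC042, the difference of the Gstp1 diet effect between strains had an adjusted p of 0.759 and its fall in males was -0.24 (adjusted p = 0.105), so both rest on this strain.

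**Figure D5:**
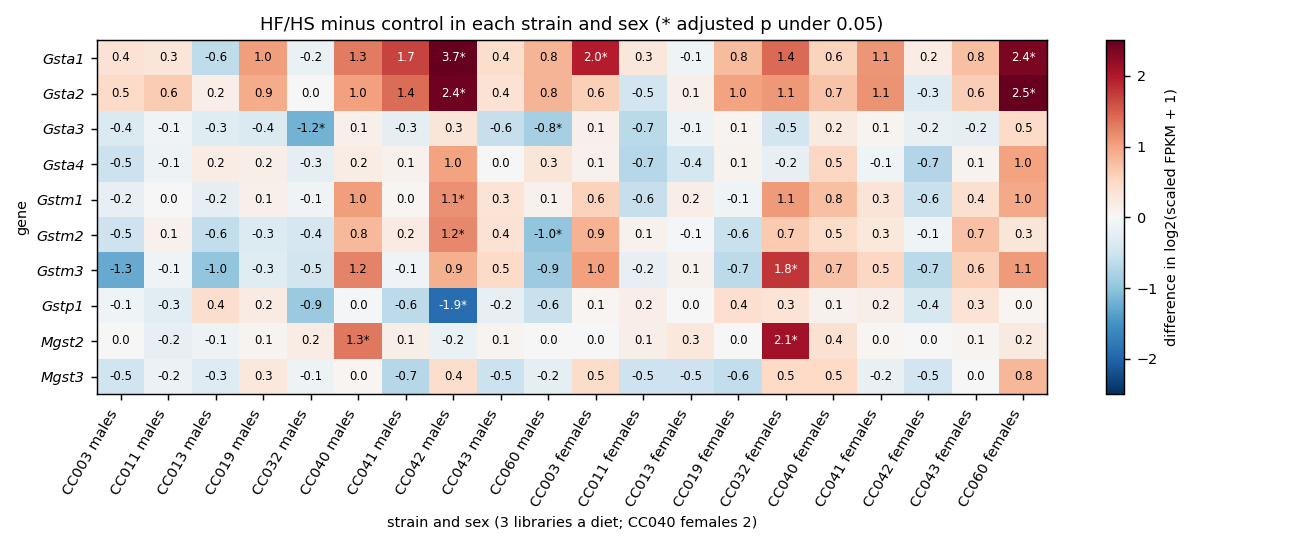
HF/HS minus control in log2(scaled FPKM + 1) for each member (rows) in each strain and sex (columns, males left of females), with asterisks at an adjusted p under 0.05. CC042 males hold 5 of the 14 asterisks, and Gsta1 and Gsta2 are positive in most columns.

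The other calls by strain and sex were scattered. In CC032 females, Mgst2 was at 50.1, 32.5 and 40.6 units on the HF/HS diet against 9.18, 12.2 and 5.62 on the control diet, a rise of 2.11 (SE 0.17, adjusted p = 1.62e-16), while CC032 males had 64.0, 58.9 and 45.5 on the HF/HS diet and 36.4, 61.0 and 51.8 on the control diet (0.19, SE 0.17, adjusted p = 0.872). The sexes of CC032 differed in this diet effect by -1.92 (SE 0.24, adjusted p = 2.5e-08), a call lost with a pseudocount of 0.1 (-2.03, adjusted p = 0.428). In CC040 it was the males in which Mgst2 was called, at the values given above (1.31, SE 0.17, adjusted p = 1.6e-07), and the females had 0.38 (SE 0.21, adjusted p = 1). The call in CC040 males was lost with a pseudocount of 0.1 (1.34, adjusted p = 0.539). The sexes of CC040 did not pass the test of the difference (0.94, SE 0.27, adjusted p = 0.476).

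Gstm3 rose in CC032 females (1.79, SE 0.49, adjusted p = 0.0175), with 84.5, 81.0 and 117.95 units on the HF/HS diet and 29.9, 21.9 and 27.3 on the control diet, which do not overlap. That call was lost without female HF/HS 3 (1.62, adjusted p = 0.0753), female control 2 (1.67, adjusted p = 0.0949) or female control 3 (1.82, adjusted p = 0.0631). Gsta1 rose in CC003 females (1.96, SE 0.58, adjusted p = 0.0231), with 7.86, 17.4 and 5.94 units on the HF/HS diet and 0.819, 2.26 and 2.23 on the control diet, without overlap, and lost the call without female HF/HS 2 (1.55, adjusted p = 0.152) among others. Gsta3 fell in CC032 males (-1.17, SE 0.32, adjusted p = 0.0276), to 1089, 757 and 449 units on the HF/HS diet, against 1473, 1503 and 1922 on the control diet. Without male HF/HS 3 that fall was -0.84 (adjusted p = 0.669). In CC060 males Gsta3 (-0.83, SE 0.32, adjusted p = 0.0468) and Gstm2 (-0.98, SE 0.30, adjusted p = 0.0142) fell. Without CC060 male control 3 these were -0.57 (adjusted p = 0.54) for Gsta3 and -0.88 (adjusted p = 0.19) for Gstm2.

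CC060 females were called for Gsta1 (2.36, SE 0.58, adjusted p = 0.0135) and Gsta2 (2.51, SE 0.59, adjusted p = 0.00913). Gsta1 was at 92.4, 63.3 and 71.7 units on the HF/HS diet and 3.17, 51.9 and 13.7 on the control diet, and the lowest control value came from female control 1. Without that library the differences were 1.44 (adjusted p = 0.327) for Gsta1 and 1.50 (adjusted p = 0.292) for Gsta2, so neither call holds without it. Over both sexes of CC060 they then stayed past the threshold, at 1.14 (adjusted p = 0.048) and 1.17 (adjusted p = 0.0431).

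The male minus female difference in the diet effect was called within strains for 4 of 100 member-strain pairs, 1 higher and 3 lower, against 1.21% of all gene-strain pairs (0.581% higher, 0.624% lower). Besides Gsta1 in CC042 and Mgst2 in CC032 these were Gstm2 (-1.38, SE 0.43, adjusted p = 0.0472) and Gstm3 (-2.27, SE 0.69, adjusted p = 0.0418) in CC003. CC003 males had 30.6, 61.9 and 22.8 units of Gstm3 on the HF/HS diet and 102, 71.2 and 85.4 on the control diet, against 44.2, 202 and 92.3 in females on the HF/HS diet and 64.6, 40.9 and 36.7 in females on the control diet, where the second HF/HS library was the highest of all libraries used. Both CC003 calls were lost in many alternatives, for example without female HF/HS 2 of every strain, at -1.24 (adjusted p = 0.107) for Gstm2 and -1.72 (adjusted p = 0.172) for Gstm3.

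Across the 40 group means, Gsta1 and Gsta2 had a Pearson correlation of 0.976 on the log2 scale, and across libraries after group means were removed one of 0.879. With 44.6% of the 50-base stretches of Gsta1 also in Gsta2, these rows may count some of the same reads. Within groups the pairs among the 8 members other than Gstp1 and Mgst2 had correlations of 0.379 to 0.879. Gsta2 and Gsta4 had 0.863, Gstm1 and Gsta4 0.860, and Gsta3 and Mgst3 0.823, whereas Gstp1 and Mgst2 had values between -0.18 and 0.15 with every other member. Libraries share their scaling and preparation, and CC011 female HF/HS 1 was low for several members at once, with 0.138 units of Gsta1, 0.661 of Gsta2, 6.25 of Gsta4, 108 of Gstm1 and 9.39 of Mgst3. These correlations are descriptions.

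For each member, the 2 genes with the most similar pattern were sought over 32 group means of the 8 strains other than CC003 and CC060. Gstp1 had Gstp2 at a Pearson correlation of 0.997, with Lama3 next at 0.880. Gstp1 shares 51% of its 50-base stretches with Gstp2, so these rows may count some of the same reads. Mgst2 had Miox at 0.917 and Fmr1nb at 0.904, and Gstm2 had Cyp2j6 at 0.903 and Impad1 at 0.875. Gstm3 had Pogk at 0.891 and Psen2 at 0.853, Mgst3 P2ry4 at 0.846 and Sdpr at 0.828, Gsta2 Commd2 at 0.836 and Mettl7a3 at 0.835, and Gsta1 Arl2 at 0.805 and Parp16 at 0.795. The lowest top values were those of Gsta3 (Abhd14b and Samm50, 0.797 each), Gsta4 (Bckdhb 0.787 and Hars2 0.783) and Gstm1 (Syngr1 0.733 and Tcea3 0.724). Members themselves and predicted genes were not among the candidates. Both genes of a pair named here share the same libraries, and these correlations are descriptions too.

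The rest of the pathway was described from fixed lists. Of 17 other tested glutathione transferases and relatives, 5 rose and 3 fell over all strains and sexes, with a median of 0.02. Mgst1, the most abundant membrane-bound transferase of liver, averaged 5970.4 units on the HF/HS diet and 4962 units on the control diet (0.29, SE 0.03, adjusted p = 2.15e-13). Of 17 genes that make, recycle or use glutathione, 6 rose and 3 fell, with a median of 0.07. They included the peroxidase gene Gpx1 (0.28, SE 0.05, adjusted p = 3.71e-06) and the glutathione synthetase gene Gss (0.23, SE 0.05, adjusted p = 4.24e-05), both higher, and G6pdx, which supplies reducing power as NADPH (-0.56, SE 0.10, adjusted p = 3.85e-06), lower. Of 13 genes for conjugate export and breakdown, 8 rose and 3 fell, with a median of 0.10: the transporters Abcc3 (0.70, SE 0.07, adjusted p = 2.33e-12) and Abcg2 (0.39, SE 0.04, adjusted p = 2.88e-13) were higher and Ccbl1, a lyase of cysteine conjugates (-0.32, SE 0.04, adjusted p = 7.47e-09), was lower. Of 13 regulators, 4 rose and 2 fell, with a median of 0.02, among them Nfe2l2, which encodes the antioxidant response factor NRF2 (0.17, SE 0.04, adjusted p = 0.000696), its partner Mafk (0.19, SE 0.04, adjusted p = 0.000473) and the hepatocyte factor Hnf4a (-0.11, SE 0.03, adjusted p = 0.00388), which fell. Against the 17.2% higher and 15.4% lower among all genes, these shares are descriptions of the lists.

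Bulk liver cannot tell fewer cells of a type from less RNA per cell. Summed levels of 9 macrophage markers ran from 83.4 to 1808 units on the HF/HS diet (median 488) and from 169 to 1520.3 on the control diet (median 419.8), with 4 of 9 markers called higher and none lower. In males the sum ran from 83.4 to 794 units (median 401) and in females from 224 to 1808 (median 513), with 8 of 9 lower in males on the control diet and 9 of 9 on the HF/HS diet. The summed level of 7 bile duct markers ran from 15.2 to 188 units on the HF/HS diet and from 15.2 to 221 on the control diet, with 1 of 3 tested markers higher. Of the 10 hepatocyte markers, 2 were higher and 6 lower on the HF/HS diet, with sums of 26390.4 to 85048 units against 28173 to 123935. Of 7 periportal markers 0 were higher and 5 lower, and of 8 pericentral markers 2 were higher and 0 lower. Of 6 stellate cell and matrix markers 2 were higher and 0 lower, likewise 2 and 0 of 5 endothelial markers, 1 and 0 of 4 red blood cell markers and 0 and 0 of 2 tested pancreas markers, while no lymphocyte marker reached the mean of 1 unit. CC011 female HF/HS 1, low for several transferases, had a macrophage sum of 1246 units and the lowest periportal sum, 1245 units. No marker of these lists was at 0 in all libraries of a diet or sex. Their part in the differences of the transferases was not tested.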

How the data were processed

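Liver RNA of 120 libraries was measured by RNA sequencing. Libraries were made from 500 ng of total RNA, and the labels' protocols name both a ribosomal-depletion and a poly(A) stranded kit without saying which library used which. TopHat2 2.1.1, Bowtie2 2.2.5.0, Cufflinks 2.2.1 and the mm10 build are listed in the submitters' processing notes, with no order or role, so how reads were divided between paralogs is unknown here. Values deposited by the authors behave as FPKM rescaled by the authors to a 75th percentile near 10. They are treated as a signal that the authors deposited normalized, and no count, depth or counting error can be had from them.

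From these values log2(value + 1) was computed and limma 3.58.1 (R 4.3.3, trend and robust priors) fitted 1 mean to each of 40 groups over the 59 HF/HS and 59 control libraries used. Rows with a mean under 1 unit were left out, 12205 remained, and p-values (two-sided) were adjusted by Benjamini-Hochberg over all of them, for each contrast, with calls at an adjusted p under 0.05. Fold changes on this scale understate those of low genes. Strain order used means on the control diet. Shared 50-base stretches were counted in GENCODE M21 transcripts, open reading frames and promoters were aligned with Biopython 1.88, and the 3 promoter motifs were chosen after the values had been seen. The members and the gene and marker lists were chosen with earlier results of these data known. All 10 members are named, with up to 3 called genes of each pathway list by lowest adjusted p, Gstp2 and the bile duct, macrophage, hepatocyte, periportal, pericentral, stellate, endothelial, lymphocyte, red blood cell and pancreas lists as counts. Gm3776, Gm10639 and Gstp2 are on the list of other transferases. Alternatives were other pseudocounts, filters and normalizations, a replicate block, the strain as the unit, all 120 columns, and leaving out strains or replicates. Leaving out each of 3 libraries that stood apart was chosen after seeing the data.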

Additional observations from a re-analysis of the deposited data

Results flagged for a closer look

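Effects that differed between groups under the same contrast were singled out by a test of the difference itself (limma, adjusted p over all genes). The diet effect differed between males and females over all strains for Gstp1 (adjusted p = 0.0334), with -0.40 in males and 0.12 in females on log2(value + 1).

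The diet effect differed between the 10 strains for Mgst2 (adjusted p = 1.82e-08), Gstp1 (adjusted p = 0.0217) and Gstm2 (adjusted p = 0.0433). Mgst2 was near 0 outside CC032 and CC040, so a change in those strains alone makes the strains differ. By strain, HF/HS minus control was highest for Mgst2 in CC032 (1.15) and lowest for Gstp1 in CC042 (-1.15).

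The male minus female difference varied between strains for 8 members. Mgst2 is among them but was near 0 outside CC032 and CC040, so its result was largely set by where it was present. The adjusted p was 5.97e-28 for Mgst2, 2.7e-16 for Gstp1, 0.000343 for Gsta2, 0.000563 for Mgst3, 0.00156 for Gsta1, 0.00426 for Gsta4, 0.00614 for Gstm3 and 0.0135 for Gstm1. Gsta4 was lower in males of CC042 (-0.86), with a ratio of male to female means of 1.01 on the HF/HS diet and 0.294 on the control diet, and higher in males of CC060 (0.76), where without CC060 female control 1 the value was 0.44 (adjusted p = 0.259) and without CC060 male control 3 it was 0.50 (adjusted p = 0.213).

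Within single strains, the diet effect differed between males and females for Mgst2 in CC032 (adjusted p = 2.5e-08), Gsta1 in CC042 (adjusted p = 0.016), Gstm3 in CC003 (adjusted p = 0.0418) and Gstm2 in CC003 (adjusted p = 0.0472). These are 4 of 100 member-strain pairs, against 1.21% of all gene-strain pairs. Each of the 4 was lost in 1 or more alternatives.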

How the results depend on the processing

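Of the gene-level results under all alternatives, 3955 kept their side of the threshold and their direction, 86 stayed uncalled with a changed sign, 1040 F tests, which have no direction, kept their side, 299 lost a call, 38 gained one, and 1 called result changed sign (Mgst2, male minus female on the HF/HS diet without CC040, -0.0256, adjusted p = 0.741). Under a fit to 1 value per strain, members called numbered 2 over all strains and sexes, 1 in females, 1 in males, 0 for the male minus female difference in the diet effect, 4 for sex on the control diet and 2 for sex on HF/HS. The counts over all genes were then 2072 (against 3975), 556 (against 2157), 685 (against 2555), 0 (against 107, with 710 at an unadjusted p under 0.05), 3091 (against 5314) and 3269 (against 5545), and no F test or single strain could be fitted.

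Females had 3 members called with a pseudocount of 0.1, with no filter, with all 120 columns, or without CC003, CC040, CC041 or CC043, and 2 without CC032, CC060 or both CC003 and CC060. The male minus female diet effect had 0 under quantile normalization and without CC032, CC041, CC042, CC043, CC060 or both CC003 and CC060, and 2 without CC040. Strain differences in the diet effect had 1 without CC019 or CC042. Over all genes they numbered 1093 with no filter and 448 with a mean of at least 5, against 676. Single strains had 14 diet calls without CC011, and strain-sex groups 9 without CC032 and 7 without CC042. The sex difference in the diet effect by strain had 11 calls without CC011, 8 without CC060, 7 without CC003 and CC060, 2 without CC013, CC032, CC040 or CC041, and 1 without CC042. Strain pairs had 152 without CC003 and CC060, where fewer pairs remain.

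Leaving out 1 replicate at a time gave 4 to 6 members called over all strains and sexes, 2 to 6 in females, 3 to 5 in males, 0 to 1 for the male minus female diet effect, 6 to 7 and 5 to 5 for sex on the control and HF/HS diets, 6 to 13 by strain, 8 to 21 by strain and sex, 2 to 11 for the sex difference in the diet effect by strain, 31 to 41 for sex by strain, 219 to 271 for strain pairs, and 1 to 3, 10 to 10 and 7 to 9 for the F tests of diet, strain and sex. Where a group was left with 1 library, it is assumed to vary like the other groups. Without CC011 female HF/HS 1 alone, 13 diet calls by strain and 11 sex differences in the diet effect were made.

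No pairing by library number was seen. Deviations of same-numbered libraries had a mean correlation of 0.0027 (9 of 58 pairs over 0.1), against -0.00092 for different numbers (20 of 117). These correlations cannot establish that the numbers paired no samples. With the replicate block over all groups, females had 3 members called. The values carry no depth, so counting error could not be given, and reads shared by paralogs limit Gsta1, Gsta2 and Gstp1. The cause of lost calls was not tested.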
